A study of Homo sapiens with 3 samples.

Results

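The genes described here are those of the NRF2 system: NFE2L2, which encodes the transcription factor NRF2, KEAP1, which encodes its inhibitor, and 8 antioxidant genes that NRF2 is known to drive, NQO1, GCLC, GCLM, HMOX1, TXNRD1, SRXN1, GSR and AKR1B1. These 10 members were chosen by gene symbol out of 58735 annotated genes, and all 10 were found and reached 1 CPM (read count scaled to the library total) in at least 1 library. RNA sequencing had been carried out on 3 established human prostate cancer cell lines, with 1 library each, and no treatment or genetic change is named in the labels. LNCAP was placed by the study in the androgen-dependent class. PC3 and DU145 were placed in the castration-resistant class, which stands for cancer that progresses when androgen is withdrawn. Each group is therefore a single cultured line and not a set of tumours, and a difference between 2 lines has no replicate check.

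In unstressed cells the KEAP1 protein holds NRF2 in a ubiquitin ligase complex built on CUL3, and NRF2 is degraded. Oxidants and electrophiles modify cysteines of KEAP1, NRF2 then escapes, enters the nucleus, pairs with a small MAF protein and binds antioxidant response elements in its target genes. The system is therefore regulated largely at the protein level, which RNA counts do not report. The targets make and recycle glutathione, reduce thioredoxin and peroxiredoxins, reduce quinones and aldehydes, and degrade heme.

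The core of the antioxidant response element was searched as TGACNNNGC on both strands in RefSeq promoter windows (build GRCh38.p14, 250 bases before to 50 after a start site). Windows were found for 8 of the 10 members, 12 windows in all, and 4 of these windows, from GCLM, KEAP1 and TXNRD1, held a match. Among all 35116 windows of all genes, 13.3% held one. These stretches are shown because NRF2 is known to act through such elements. The match is in capitals with 10 bases on each side, read along the gene's strand.
GCLM chr1:93909446-93909474 (minus strand): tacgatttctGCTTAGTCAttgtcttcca
KEAP1 chr19:10502784-10502812 (minus strand): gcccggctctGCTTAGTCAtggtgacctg
KEAP1 chr19:10502807-10502835 (minus strand): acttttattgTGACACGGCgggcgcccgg
TXNRD1 chr12:104215670-104215698 (plus strand): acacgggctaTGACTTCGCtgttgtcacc
TXNRD1 chr12:104215761-104215789 (plus strand): gcgtccttcgGCTCCGTCAgttcccacag
TXNRD1 chr12:104286920-104286948 (plus strand): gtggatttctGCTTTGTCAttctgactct
GCLM and KEAP1 carried the same 9 letters, GCTTAGTCA, at 34 and 31 bases before their start sites. On the opposite strand these letters read TGACTAAGC. Both KEAP1 matches and the third TXNRD1 match lay wholly inside exons annotated in GENCODE 29, the first TXNRD1 match lay outside exons, and the GCLM match and the second TXNRD1 match each had 1 base inside an exon. A match is a string of letters and was not tested for binding, and elements further from the start site lie outside these windows.

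Depth was even: 15393103 counts were deposited for LNCAP, 15319045 for PC3 and 15878546 for DU145. Mitochondrial genes took 7.97%, 4.35% and 5.6% of them. Line identity was checked on marker genes. Of 5 luminal prostate markers none was at 0 in LNCAP, 2 were at 0 in PC3 and 4 in DU145, and the 3 epithelial markers EPCAM, KRT8 and KRT18 had counts in every library. CTNNA1, known to be lost in PC3, stood at 362, 2.16 and 506 CPM, listed as LNCAP, PC3, DU145. Summed levels were 33.3, 32.2 and 9.96 CPM for 3 fibroblast markers, 9.21, 20.2 and 0.766 CPM for 2 endothelial markers and 0.32, 0.654 and 1.4 CPM for 3 leukocyte markers, in the same order. Of these markers, DCN (3, 0 and 0 counts), PTPRC (1, 7 and 0 counts) and CD3E (no counts) were at or near 0. COL1A1 (33.1, 31.9 and 9.45 CPM), VWF in LNCAP (9.21 CPM), PECAM1 in PC3 (20.1 CPM) and CD14 in DU145 (1.4 CPM) made up most of these sums. The part of these transcripts in the results was not tested. In bulk RNA, fewer cells that express a gene and less RNA per cell cannot be told apart.

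Of the 10 members 8 stood highest in DU145, against 31.2% of the 18025 genes tested (those at 1 CPM or more in any library), and none stood highest in PC3. KEAP1 and GSR were the exceptions, highest in LNCAP. PC3 was the lowest library for 5 members, NQO1, GCLM, HMOX1, SRXN1 and GSR, against 31.3% of genes tested. Levels below are CPM after TMM scaling, which corrects library totals for composition, and each fold is the plain ratio with an exact 95% counting interval, whereas log2 ratios have 0.5 counts added. These intervals excluded a ratio of 1 for all 10 members in each of the 3 pairs of libraries, but so they did for 79.3% of genes tested in PC3 against LNCAP, 80.2% in DU145 against LNCAP and 74.4% in DU145 against PC3. They cover counting error only, since reads are not independent molecules and each line has 1 library.

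**Figure D1:**
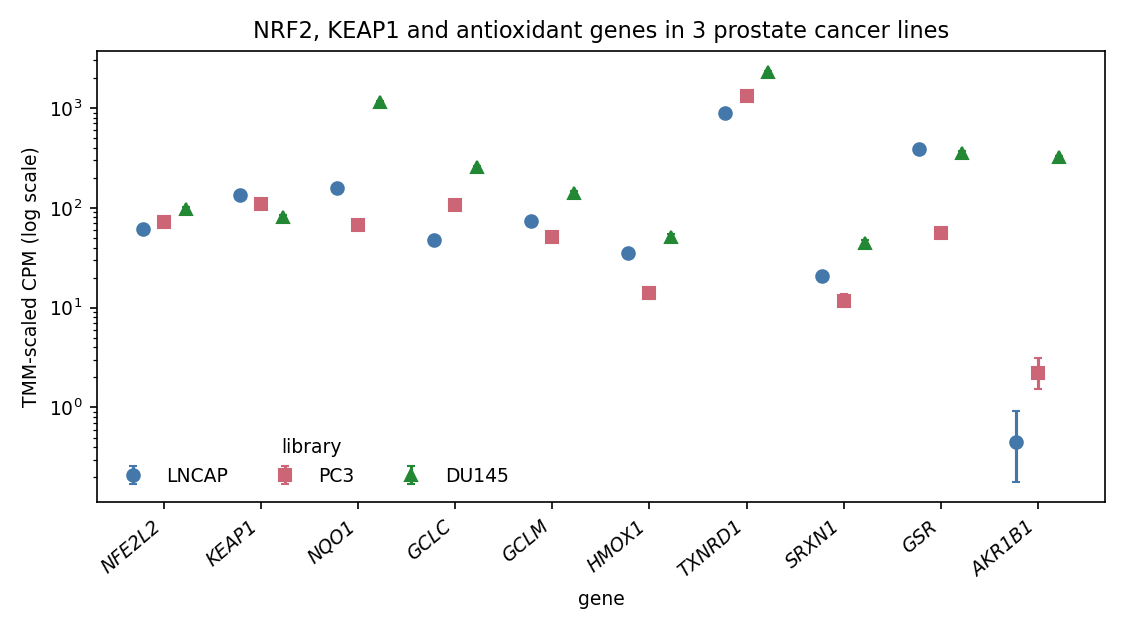
Level of each of the 10 genes (horizontal axis) in TMM-scaled CPM on a log axis (vertical), with 1 point per library and bars for the exact 95% counting interval of a Poisson count; most bars are smaller than the points. DU145 is the highest point for 8 genes, KEAP1 and GSR are highest in LNCAP, and AKR1B1 spans 0.448 to 322 CPM.

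The 2 regulators had the smallest ranges of the 10 members. NFE2L2 (ENSG00000116044, chromosome 2, 177227595 to 177392697) had 958, 1115 and 1520 counts, or 61.3, 72.9 and 97 CPM; values are listed here and below as LNCAP, PC3, DU145, and gene coordinates are those of GRCh38. The order was LNCAP, PC3, DU145, and the top was 1.58-fold above the bottom (1.46 to 1.72). KEAP1 (ENSG00000079999, chromosome 19, 10486120 to 10503741) ran in the opposite order, with 2091, 1661 and 1263 counts, or 134, 109 and 80.6 CPM. It was 1.66-fold lower in DU145 than in LNCAP (1.55 to 1.78) and 1.23-fold lower in PC3 than in LNCAP (1.15 to 1.31). None of these differences reached 2-fold. Exons of NFE2L2 are shared in part with other gene models, chiefly AC019080.1 on the same strand, which covers 17.6% of its exon bases and had 3, 24 and 52 counts.

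Set against each other per gene length, transcripts of the factor were fewest relative to those of its inhibitor in LNCAP. The level of NFE2L2 was 0.288 of that of KEAP1 in LNCAP (counting interval 0.267 to 0.311), 0.422 in PC3 (0.391 to 0.456) and 0.757 in DU145 (0.702 to 0.816). The 3 intervals did not overlap, and this ratio within a library does not depend on how the libraries were scaled. It stayed under 1 in each library. The lengths used count all annotated exon bases of a gene. Where the ratio stands against 1 therefore depends on these lengths, while its order over the libraries does not depend on them.

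The first step of glutathione synthesis is carried out by glutamate cysteine ligase, of which GCLC is the catalytic subunit and GCLM the modifier subunit. GCLC (chromosome 6, 53497341 to 53616970) had 752, 1622 and 3978 counts, or 48.1, 106 and 254 CPM in LNCAP, PC3 and DU145, so each library in that order was higher than the one before. GCLC was 2.21-fold higher in PC3 than in LNCAP (2.02 to 2.41) and 5.28-fold higher in DU145 than in LNCAP (4.88 to 5.71). GCLM (chromosome 1, 93885205 to 93909456) had 1154, 772 and 2198 counts, or 73.8, 50.5 and 140.3 CPM, and here PC3 was lowest. It was 1.46-fold lower in PC3 (1.33 to 1.6) and 1.9-fold higher in DU145 (1.77 to 2.04) than in LNCAP. The subunits therefore stood in different proportion: per length, GCLC was 0.409 of GCLM in LNCAP (0.372 to 0.448), 1.32 in PC3 (1.21 to 1.44) and 1.13 in DU145 (1.08 to 1.2). Where these ratios stand against 1 again depends on the annotated lengths.

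**Figure D2:**
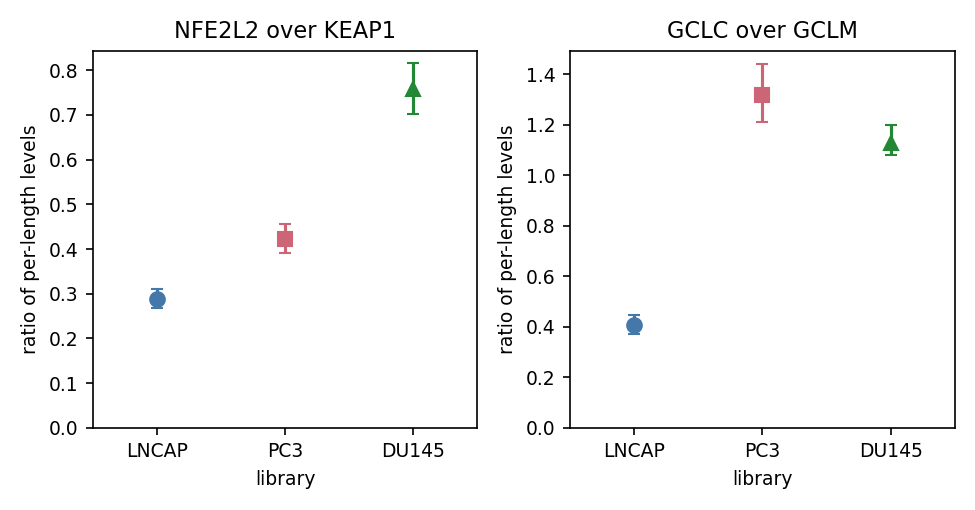
Ratio of per-length levels of NFE2L2 over KEAP1 (left) and GCLC over GCLM (right) within each library, on linear axes from 0, with bars for the exact 95% counting interval. The left ratio runs from 0.288 in LNCAP to 0.757 in DU145, and the right ratio is under 1 in LNCAP only (0.409). Lengths are those of the annotated gene models.

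GSR, glutathione reductase, which restores reduced glutathione with NADPH, was set apart by PC3. GSR (chromosome 8, 30678061 to 30727999) had 6052, 851 and 5613 counts, or 387, 55.7 and 358 CPM. LNCAP and DU145 lay 1.08-fold apart (1.04 to 1.12), and PC3 was 6.95-fold lower than LNCAP (6.47 to 7.48) and 6.43-fold lower than DU145 (5.99 to 6.92). Its nearest protein-coding neighbours on the chromosome did not stand as far apart in PC3. UBXN8, 4.25 kb away, stood at 30.1, 14.5 and 17.7 CPM, in the order LNCAP, PC3, DU145. GTF2E2 stood at 44.5, 44.7 and 63.1 CPM, and PPP2CB at 78, 47.5 and 131 CPM. These neighbours were chosen by position after the value of GSR was known.

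Of the members in the thioredoxin branch, TXNRD1, cytosolic thioredoxin reductase (chromosome 12, 104215779 to 104350305), stood highest. It had 14014, 20063 and 36153 counts, or 896, 1313 and 2307 CPM, in the order LNCAP, PC3, DU145. TXNRD1 was 1.46-fold higher in PC3 (1.43 to 1.5) and 2.57-fold higher in DU145 (2.52 to 2.62) than in LNCAP. By deposited FPKM, which divides by gene length and so allows genes to be ranked, it was first among the members in LNCAP and PC3 at 131 and 194 and ranked 2 of 10 in DU145 at 344. SRXN1, sulfiredoxin, which repairs over-oxidised peroxiredoxins, was among the lowest members and PC3 was its lowest library. SRXN1 (chromosome 20, 646615 to 653370) had 322, 179 and 700 counts, or 20.6, 11.7 and 44.7 CPM. It was 1.76-fold lower in PC3 (1.46 to 2.12) and 2.17-fold higher in DU145 (1.9 to 2.48) than in LNCAP. A second protein-coding model on the same strand, AL121758.1, covers 85% of the exon bases of SRXN1 and was given 22, 1 and 17 counts, so the level of SRXN1 is uncertain.

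NQO1, the quinone reductase widely used as a readout of NRF2, separated DU145 from the other lines. NQO1 (ENSG00000181019, chromosome 16, 69706996 to 69726951) had 2482, 1038 and 18091 counts, or 159, 67.9 and 1155 CPM. Against LNCAP it was 2.34-fold lower in PC3 (2.17 to 2.52) and 7.27-fold higher in DU145 (6.97 to 7.59), and DU145 stood 17-fold above PC3 (16 to 18.1). By FPKM it ranked 3 of 10 in LNCAP (47.9) and PC3 (20.7) and first in DU145 (354). Its closest neighbours varied less: NFAT5, 2.33 kb away, stood at 208, 154 and 141 CPM, and NOB1, 14.9 kb away, at 43.6, 45.9 and 94.5 CPM.

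AKR1B1, aldose reductase, which reduces glucose and reactive aldehydes, had the widest range of the members. AKR1B1 (ENSG00000085662, chromosome 7, 134442350 to 134459284) had 7, 34 and 5050 counts, or 0.448, 2.22 and 322 CPM. It was the lowest member by FPKM in LNCAP (0.12) and PC3 (0.603) and ranked 4 of 10 in DU145 (88). DU145 stood 145-fold above PC3 (104 to 209) and 719.8-fold above LNCAP (349 to 1791). The difference between PC3 and LNCAP was 4.97-fold with a wide interval, 2.17 to 13.3, because it rests on 7 counts, and with 5 counts added it was no longer 4-fold. The neighbouring gene SLC35B4 stood at 75.4, 81.3 and 58.1 CPM in the 3 libraries, while AKR1B10, a relative 68.3 kb away, had 4, 5 and 21 counts. The 7 pseudogene models named after AKR1B1 had no counts in any library.

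HMOX1, the inducible heme oxygenase, was highest in DU145 and lowest in PC3. HMOX1 (chromosome 22, 35380361 to 35394214) had 546, 215 and 804 counts, or 34.9, 14.1 and 51.3 CPM. It was 2.48-fold lower in PC3 (2.12 to 2.92) and 1.47-fold higher in DU145 (1.32 to 1.64) than in LNCAP, and 3.65-fold higher in DU145 than in PC3 (3.13 to 4.26).

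Over the members together, PC3 against LNCAP showed no common direction. A gene was called when its ratio, with 0.5 counts added, was at least 4-fold and its counting interval excluded 1. AKR1B1 was called higher and GSR lower, 1 member each way, against 13% and 13.4% of genes tested. At 2-fold, 2 members were higher (GCLC and AKR1B1) against 22.6% of genes, and 3 were lower (NQO1, HMOX1 and GSR) against 23.6%. These shares lie near those of all genes. The median log2 ratio of the members was -0.42, beside -0.01 over all genes tested.

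In DU145 against LNCAP 3 members, AKR1B1, NQO1 and GCLC, were at least 4-fold higher against 13.7% of genes tested, and no member was 4-fold lower against 12.1%. At 2-fold 5 members were higher, TXNRD1 and SRXN1 with them, against 22.9%, and none was lower against 23.1%. The median log2 ratio was 1.02, beside 0 over all genes tested. This comparison and that of PC3 share the LNCAP library.

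Between the castration-resistant lines, 3 members, AKR1B1, NQO1 and GSR, were at least 4-fold higher in DU145 than in PC3, against 10.6% of genes tested, and none was lower against 8.54%. At 2-fold 7 members were higher in DU145, against 19.3%, and none was lower against 18.5%. The members under 2-fold were NFE2L2, KEAP1 and TXNRD1. The median log2 ratio was 1.67, beside 0 over all genes tested. The members had been chosen with earlier results of these data known, so these counts are a description of these libraries.

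**Figure D3:**
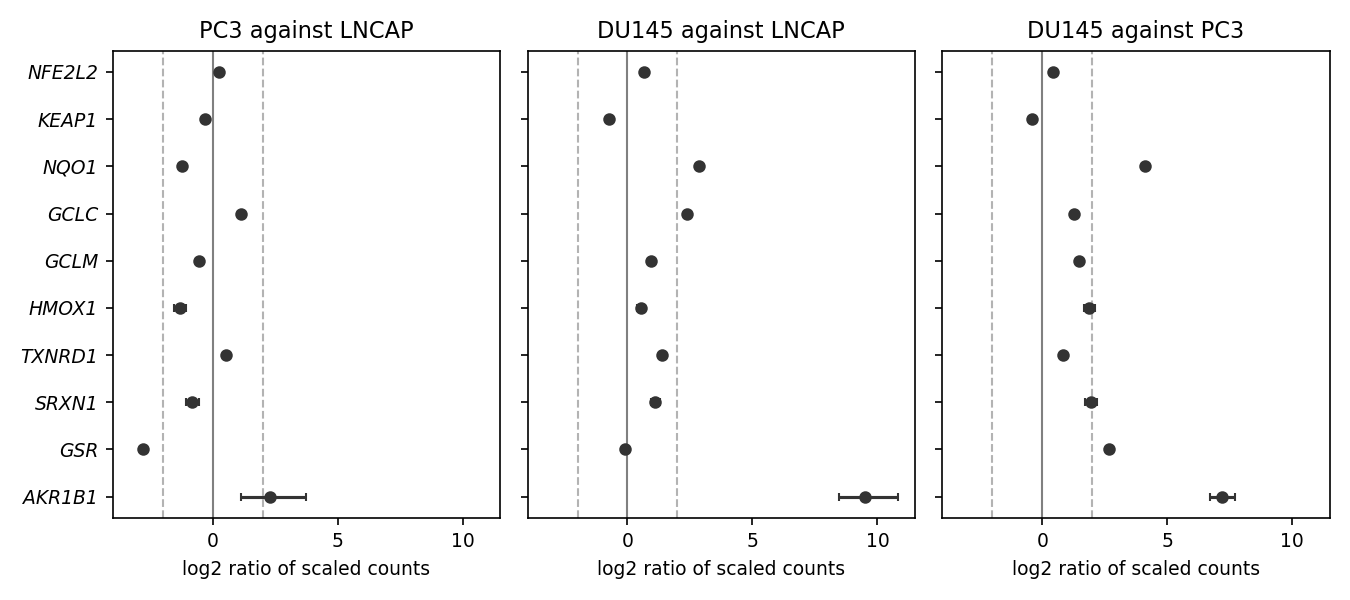
Log2 ratio of TMM-scaled counts (horizontal axis) for each of the 10 genes in the 3 pairs of libraries, with bars for the exact 95% counting interval; the solid line marks equal levels and the dashed lines a 4-fold difference. Points lie on both sides of 0 in PC3 against LNCAP, while KEAP1 is the lone point clearly below 0 in the panels of DU145, where GSR against LNCAP is at -0.11.

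The class comparison set PC3 and DU145 as 2 libraries against LNCAP in edgeR's quasi-likelihood test, with the distance between these lines as the only spread (1 residual degree of freedom). For AKR1B1 the class value rested mainly on DU145. Its log2 ratio to LNCAP was 9.39 in DU145 and 2.23 in PC3, the latter on 34 against 7 counts. No gene of the 18025 passed an adjusted p of 0.05 (0%), and 9.69% had an unadjusted p under 0.05, none of them a member. GCLC had the lowest edgeR adjusted p of a member, 0.583, at 1.9 on the log2 scale and higher in both lines. AKR1B1 had an edgeR adjusted p of 0.598 at 8.48 on the log2 scale (0.000524 to 0.872 over the alternatives), and NQO1 of 0.78 at 1.94, with PC3 and DU145 on opposite sides of LNCAP. DESeq2 called 1306 genes, AKR1B1 among them (DESeq2 adjusted p = 0.000524) and no other member.

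The other genes of the pathway were read from 9 lists of 104 genes in all. Over all genes tested, 13% were 4-fold higher and 13.4% lower in PC3 against LNCAP, and 13.7% were higher and 12.1% lower in DU145 against LNCAP. Among 15 partners and regulators of NRF2, no gene was 4-fold lower in PC3 or DU145 against LNCAP. At 2-fold 3 were higher in PC3 and 2 in DU145, against 22.6% and 22.9% of all genes. MAFF, a small MAF partner, had 57, 796 and 415 counts in LNCAP, PC3 and DU145, or 3.65, 52.1 and 26.5 CPM. It was 14.3-fold higher in PC3 than in LNCAP (10.9 to 19), and its level differed between libraries more than that of the related MAFG, at 57.8, 113 and 169 CPM. NFE2L3, a relative of NRF2, stood highest in PC3 (21.7, 90.8 and 40.6 CPM). BACH2, a repressor of the same bZIP family, was low throughout, with 5, 104 and 11 counts. In all 3 of 15 were 4-fold higher in PC3 against 13% of all genes and 1 in DU145 against 13.7%, with medians of 0.67 and 0.35 on the log2 scale.

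Among 17 genes of glutathione supply and use, 5 were 4-fold higher and 1 lower in DU145 against LNCAP (13.7% and 12.1% of all genes). In PC3, 2 were higher and 2 lower, shares near the 13% and 13.4% of all genes. GPX3, a secreted glutathione peroxidase, had 44, 4 and 869 counts. It was lower in PC3 and higher in DU145 than in LNCAP. GGT1, which breaks down extracellular glutathione, was lower in both with 1646, 24 and 28 counts, though near copies of this gene could share reads. The median log2 ratios of this list were 0 in PC3 and 0.21 in DU145 against LNCAP.

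Of 16 thioredoxin and peroxiredoxin genes none was 4-fold higher in PC3 or in DU145 than in LNCAP (13% and 13.7% of all genes). In each 2 were lower, a share near the 13.4% and 12.1% of all genes. TXNIP, the inhibitor of thioredoxin, stood at 119, 54.4 and 3 CPM, 39.6-fold lower in DU145 than in LNCAP (29.7 to 54.1). SESN3, a sestrin gene, was 31.1-fold lower in PC3 than in LNCAP (25.1 to 39), at 175, 5.63 and 84.6 CPM. TXNRD2, the mitochondrial thioredoxin reductase, was low in PC3 alone at 114, 28.8 and 138 CPM. The median log2 ratio was -0.53 in PC3 and -0.8 in DU145 against LNCAP, whereas TXNRD1 was higher in both.

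Of 10 NADPH-supplying genes, 1 was 4-fold higher and 2 lower in PC3 against LNCAP, and 2 were higher and 1 lower in DU145. With so few genes these counts lie near the shares of all genes (13%, 13.4%, 13.7% and 12.1%). IDH1, cytosolic isocitrate dehydrogenase, was lowest in PC3 at 402, 49.3 and 179 CPM, and IDH2, its mitochondrial relative, stood at 227, 43.9 and 52.7 CPM. NNT, the mitochondrial transhydrogenase, had 45, 759 and 2173 counts. The medians were -0.44 and -0.29 on the log2 scale in PC3 and DU145.

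In the list of quinone and carbonyl reduction, 14 of 15 genes were tested. Against LNCAP 2 were 4-fold higher and 4 lower in PC3 (13% and 13.4% of all genes), and 4 were higher and 1 lower in DU145 (13.7% and 12.1%). With 1 added to FPKM the counts became 0 and 2 in PC3 and 1 and 0 in DU145. Between DU145 and PC3 the median log2 ratio was 1.39. At 2-fold 9 genes were higher in DU145 and 1 lower, against 19.3% and 18.5% of all genes. AKR1C1 and AKR1C2, known in other cells as NRF2 targets, were highest in LNCAP, with 507, 35 and 81 counts and 236, 5 and 59 counts, and their near copies could share reads. AKR1C3, of the same family and named after its values were seen, was highest in DU145, with 29, 87 and 277 counts. ALDH3A1, an aldehyde dehydrogenase gene, was highest in PC3 (3, 170 and 36 counts) and CYP2S1, a cytochrome P450 gene, in DU145 (19, 170 and 424 counts).

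Of 10 heme and iron genes 9 were tested. Against LNCAP 1 was 4-fold higher and 2 lower in PC3, and 1 higher and 1 lower in DU145, which lies near the shares of all genes (13%, 13.4%, 13.7% and 12.1%). The ferritin heavy chain gene FTH1 was highest in PC3 (703, 3422 and 1069 CPM) and the light chain gene FTL in DU145 (252, 325 and 1317 CPM), and pseudogenes could share reads of both. FECH, ferrochelatase, which completes heme synthesis, was 7.88-fold lower in PC3 (7.27 to 8.54) and 5.79-fold lower in DU145 (5.4 to 6.21) than in LNCAP. BLVRB, a biliverdin reductase, stood at 149.7, 31.3 and 51.9 CPM. The list had medians of -0.18 in PC3 and 0.56 in DU145 on the log2 scale. Of 5 superoxide and catalase genes none was called 4-fold apart in PC3 against LNCAP. In DU145 1 was 4-fold lower than in LNCAP (12.1% of all genes) and than in PC3 (8.54%). It was SOD3, secreted superoxide dismutase, with 167, 520 and 6 counts. The list had medians of -0.3 in PC3 and -0.34 in DU145 against LNCAP.

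Of 6 efflux transporter genes, 1 was 4-fold higher and 2 lower in PC3 against LNCAP (13% and 13.4% of all genes), and 2 higher and 1 lower in DU145 (13.7% and 12.1%). ABCC3 had 2 counts in LNCAP against 1934 in PC3 and 3539 in DU145. It was 989-fold higher in PC3 (273 to 8172) and 1765-fold higher in DU145 (488 to 14583). On FPKM with 1 added these log2 ratios were 3.8 and 4.59, and with 0.1 added 6.86 and 7.7, in place of 9.63 and 10.46. ABCC2 was high in DU145 only, with 5, 11 and 307 counts. ABCC4 was highest in LNCAP at 719.6, 58.7 and 104 CPM, and ABCG2 had 47, 4 and 138 counts. The medians were -1.41 in PC3 and 0.36 in DU145 on the log2 scale.

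The list of 10 further NRF2 targets resembled NQO1 in its highest library. Of these genes 8 stood highest in DU145, against 31.2% of all genes, and none in PC3. In DU145 against LNCAP 5 were 4-fold higher and none lower (13.7% and 12.1% of all genes), and in PC3 none was higher and 1 lower (13% and 13.4%). The medians were -0.66 in PC3 and 1.81 in DU145 against LNCAP, and 1.96 in DU145 against PC3, on the log2 scale. LUCAT1, a non-coding RNA, had 29, 49 and 1178 counts in LNCAP, PC3 and DU145. TRIM16L, which has a near copy in TRIM16, stood at 30.4, 13.5 and 147 CPM. TSKU, at 103, 17.6 and 31.1 CPM, and PIR, at 55.7, 21.4 and 30.2 CPM and named after its values were seen, were highest in LNCAP. This list, too, was drawn up with earlier results of these data known.

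**Figure D4:**
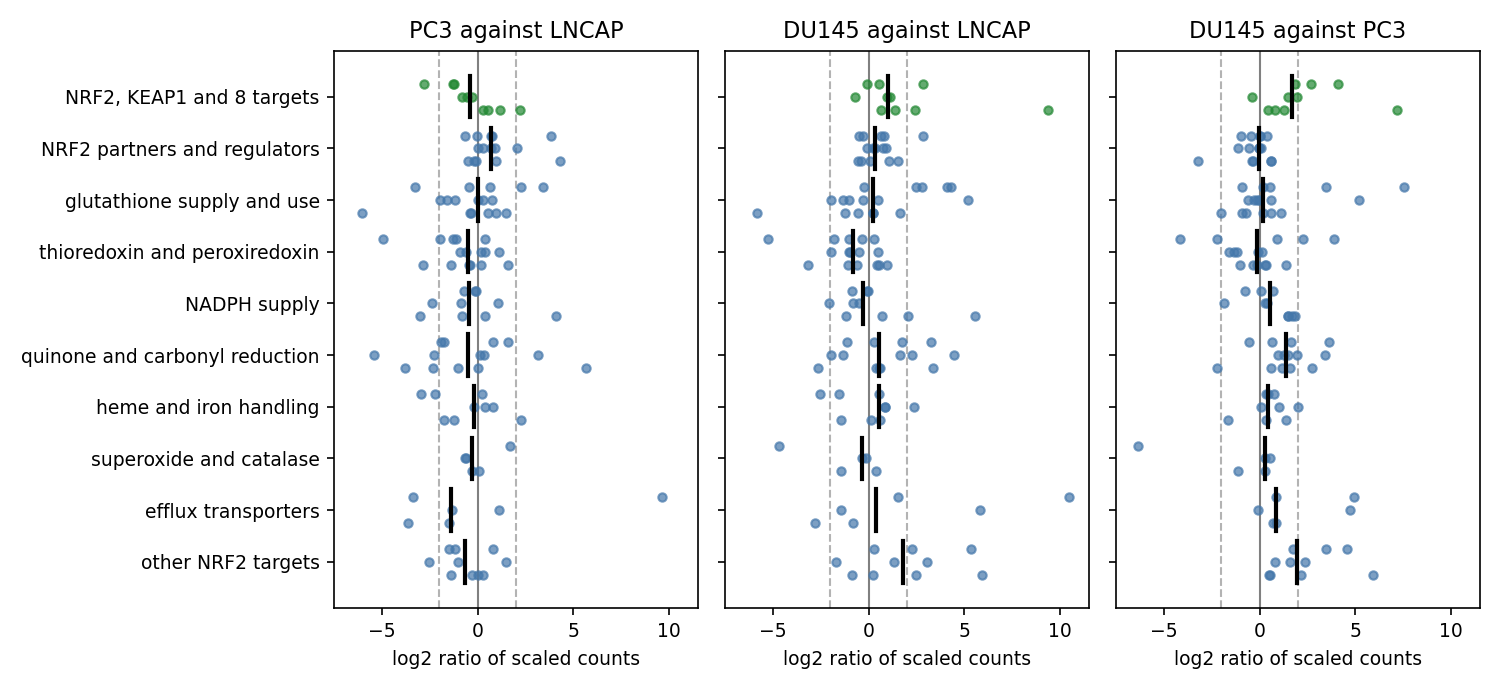
Log2 ratio of TMM-scaled counts (horizontal axis) of every tested gene in the 10 lists (rows) for the 3 pairs of libraries; each point is a gene, black bars are list medians, the solid line marks equal levels and the dashed lines a 4-fold difference. In DU145 against LNCAP the medians of the members (1.02) and of the further NRF2 targets (1.81) lie to the right of the other lists.

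Genes with the pattern most like that of the 3 widest-ranging members were sought among 14134 other protein-coding genes, by the largest difference in centred log2 CPM over the 3 libraries. AKR1B1 had 3 genes within 0.5, RAB38, USP44 and SERPING1, with 18.4, 19.8 and 11.8 CPM in DU145. Each had no counts in LNCAP and at most 0.131 CPM in PC3, so their distance from AKR1B1 is set largely by the 0.5 counts added and is no measured likeness. For NQO1 51 genes lay within 0.5. The nearest were PSMB9 (1.98, 0.981 and 16.2 CPM in LNCAP, PC3 and DU145), FOXD3 (0.32, 0.131 and 2.23 CPM) and ALDH2 (8.32, 3.6 and 75.5 CPM). FOXD3 had so few counts in LNCAP and PC3 that its distance, too, depends on the 0.5 counts added. For GSR 134 genes lay within 0.5, led by SMPDL3B (21.4, 3.27 and 21.2 CPM), ZNF268 and TPM1 (145, 23.3 and 136 CPM). With 3 libraries such likeness is easily met and is given as a description.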

How the data were processed

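Per the labels, each library of the 3 cell lines was made from 4 ug of total RNA. They list several media without tying them to lines. The authors deposited raw read counts per gene and FPKM per gene for each library. Each library's FPKM were its counts per unit of gene length times a single factor, within 0.1% for all genes of at least 100 counts. Tools listed, per the submitters' processing notes and without roles, are TopHat2 2.0.9, Bowtie2 2.0.6, Cuffdiff 2.1.1 and Cufflinks 2.1.1. Not given in the sources used here are the genome build, the read counter and its strand setting, so reads of overlapping or near-identical genes may be shared. All 58735 gene models had the coordinates of GENCODE 29, hence GRCh38.

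Counts were scaled by TMM (factors 1.016, 0.9978 and 0.9868 for LNCAP, PC3 and DU145; edgeR 4.0.16, R 4.3.3) on the 18025 genes at 1 CPM or more in any library. A count of 3, taken as the upper bound for a count of 0, is 0.192, 0.196 and 0.191 CPM. Ratios have exact conditional binomial 95% intervals (Python 3.11.15, scipy 1.17.1). The class was tested with edgeR's quasi-likelihood test across all genes with Benjamini-Hochberg adjustment. Alternatives were other scalings, filters, added counts, the deposited FPKM, DESeq2 1.42.0 and limma 3.58.1.

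The members and all lists were chosen with earlier results of these data known. All members are named. From each other list the 2 genes furthest apart each way among those called 4-fold, and the NRF2 partners called 2-fold, are named. Some genes that this rule selects are not reported here. Neighbouring genes and ratios within a library were chosen after values were seen. RefSeq windows were found for 8 of 10 members. Replicates do not exist, so none was left out.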

Additional observations from a re-analysis of the deposited data

Results flagged for a closer look

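For 4 members PC3 and DU145 lay on opposite sides of LNCAP, each with a counting interval that excluded equal levels. NQO1 stood at -1.22 in PC3 and 2.86 in DU145 (log2 ratio to LNCAP). GCLM stood at -0.55 and 0.93, HMOX1 at -1.31 and 0.55, and SRXN1 at -0.81 and 1.12, in the same order. With 1 library per line the difference was not tested, and both ratios share the LNCAP library.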

How the results depend on the processing

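Of 270 log2 ratios of members recomputed under the alternatives, 260 stayed within their counting interval, 10 moved beyond it and none changed sign. These include 30 ratios with no filter and 30 with a filter of 5 CPM. Those could not move, because a filter changes neither the counts nor the scaling of a member. The call of AKR1B1 in PC3 against LNCAP was lost with 5 counts added and on FPKM with 0.1 or 1 added (0 members 4-fold higher). Its log2 ratio was 1.72, 1.68 and 0.52 under these settings, in that order. With 1 added to FPKM, 1 member instead of 2 was 2-fold higher. AKR1B1 in DU145 against LNCAP ranged from 6.31 to 9.42. With 1 added to FPKM, the genes called 4-fold higher and lower over all genes became 908 and 746 in PC3 against LNCAP, 887 and 665 in DU145 against LNCAP, and 523 and 474 in DU145 against PC3. With a filter of 5 CPM, 1328 were lower in PC3 against LNCAP, 1624 higher and 1198 lower in DU145 against LNCAP, and 1104 higher and 943 lower in DU145 against PC3; fewer genes were tested. In the class comparison DESeq2 called 1306 genes where edgeR and limma-voom called 0 (1746 and 1334 at an unadjusted p under 0.05); the cause was not tested. With the stricter motif TGACTCAGC, 0 members had a match, as had 0.561% of all windows. Of the other lists, the NRF2 partners 4-fold higher in PC3 against LNCAP became 1 in place of 3 with 1 added to FPKM; 24 counts of 4-fold calls over these lists moved by more than 1.5 times, 16 of them with that setting. No paired analysis was possible because each line has 1 library. Depth limits AKR1B1 in LNCAP and PC3.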
